A study of Mus musculus with 6 samples.

Results

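The genes described here encode the subunits of the 3 nuclear RNA polymerases, the subunits of Mediator and the TBP-associated factors (TAFs), most of which belong to TFIID. They were taken by symbol, as every gene whose name begins with Polr1, Polr2 or Polr3, with Med and a number, or with Taf and a number, and the rule used no measured value. It found 80 of the 15565 genes in the count table, 28 of them polymerase subunits, 30 Mediator subunits and 22 TAFs, and all 80 passed the filter on low counts. The cells were hepatocytes, the main cell type of the liver, of 3 C57BL/6 mice. At an age of 2 months the livers were perfused with collagenase, TERT(High) cells were sorted apart from TERT(Low) cells, and messenger RNA was sequenced in bulk. Tert encodes the catalytic subunit of telomerase. Both groups carried the genotype Tert(CreERT2/+); R26(LSL-Tomato/+), in which 1 Tert copy holds a tamoxifen-inducible Cre recombinase and 1 R26 copy a Cre-dependent Tomato reporter, so neither group is wild type at Tert. Each mouse gave 1 library of each kind, which made 2 groups of 3 libraries, and values are listed in the order of mice 1, 2 and 3. The question was which of these genes differed in RNA level between the sorted populations of the same livers.

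RNA polymerase I makes the large ribosomal RNA precursor, RNA polymerase II makes messenger RNA and RNA polymerase III makes transfer RNA and other small RNAs. Each is built around a pair of large catalytic subunits and a set of small ones, some of which are common to all of them. TFIID, made of the TATA-binding protein TBP and its TAFs, binds core promoters, and Mediator, with its head, middle and tail modules, passes signals from DNA-bound activators to RNA polymerase II. A detachable kinase module, which holds Med12 or Med12l, Med13 or Med13l, a cyclin and a kinase, binds Mediator and blocks its contact with the polymerase. In hepatocytes this machinery serves the very high output of messages for secreted plasma proteins.

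Library totals ran from 53585174 to 76164917 counts. Tert itself had 38, 33 and 30 counts in the TERT(High) libraries and 21, 21 and 12 in the TERT(Low) libraries, which do not overlap, though the difference was not called (log2 fold change 0.87, SE 0.44, edgeR adjusted p = 0.249). Of 10 hepatocyte markers 9 were in the table, and their summed level was 121000 to 135000 CPM in TERT(High) and 114000 to 132000 CPM in TERT(Low) libraries, CPM being counts per 1e6 after TMM scaling. Markers of other liver cells were low but not equal between the groups. The 6 endothelial markers summed to 23.7 to 45.0 CPM against 17.5 to 19.1 CPM, with 2 called higher (Kdr and Lyve1), and the 8 neutrophil markers to 2.25 to 8.72 CPM against 0.313 to 1.59 CPM, with none of the 5 that could be tested called. The 9 macrophage markers summed to 14.2 to 80.9 CPM against 11.4 to 35.6 CPM, the 6 stellate cell markers to 3.95 to 141 CPM against 4.03 to 9.12 CPM and the cholangiocyte markers to 2.05 to 11.7 CPM against 2.13 to 3.26 CPM. No stellate or cholangiocyte marker was called, and the highest of these sums came from the TERT(High) library of mouse 1, where the collagen gene Col1a1 alone reached 127 CPM. Lymphocyte markers did not exceed 0.601 CPM in any library. The part of these cells in the differences below was not tested, and in bulk RNA fewer cells of a type cannot be told apart from less RNA per cell.

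The subunits did not move as a block. The 2 largest subunits of RNA polymerase II, the Mediator kinase subunit Med13, the TFIID scaffold Taf1 and the RNA-binding protein Taf15 were higher in TERT(High) cells, and 9 small subunits were lower. A gene is called here when the edgeR quasi-likelihood test, fitted on all 13288 genes that passed the filter, gave a Benjamini-Hochberg adjusted p under 0.05. By this rule 5 of the 80 genes were called higher (6.25%) against 4.43% of all genes tested, and 9 were called lower (11.2%) against 3.71%. Before adjustment, 15 of the 80 had an edgeR p under 0.05 with a positive change and 23 with a negative one. Over all 13288 genes tested these counts were 2164 and 1649. No TERT(High) library was at or under any TERT(Low) library for 15 of the 80 genes (18.8%) against 17.5% of all genes, and none was at or over any for 29 (36.2%) against 15.9%. The median log2 fold change of the 80 was -0.07 beside -0.01 for all genes, with 38 positive and 42 negative. The sign was the same in all 3 mice for 59 of the 80, beside 7283 of all 13288 genes tested.

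**Figure D1:**
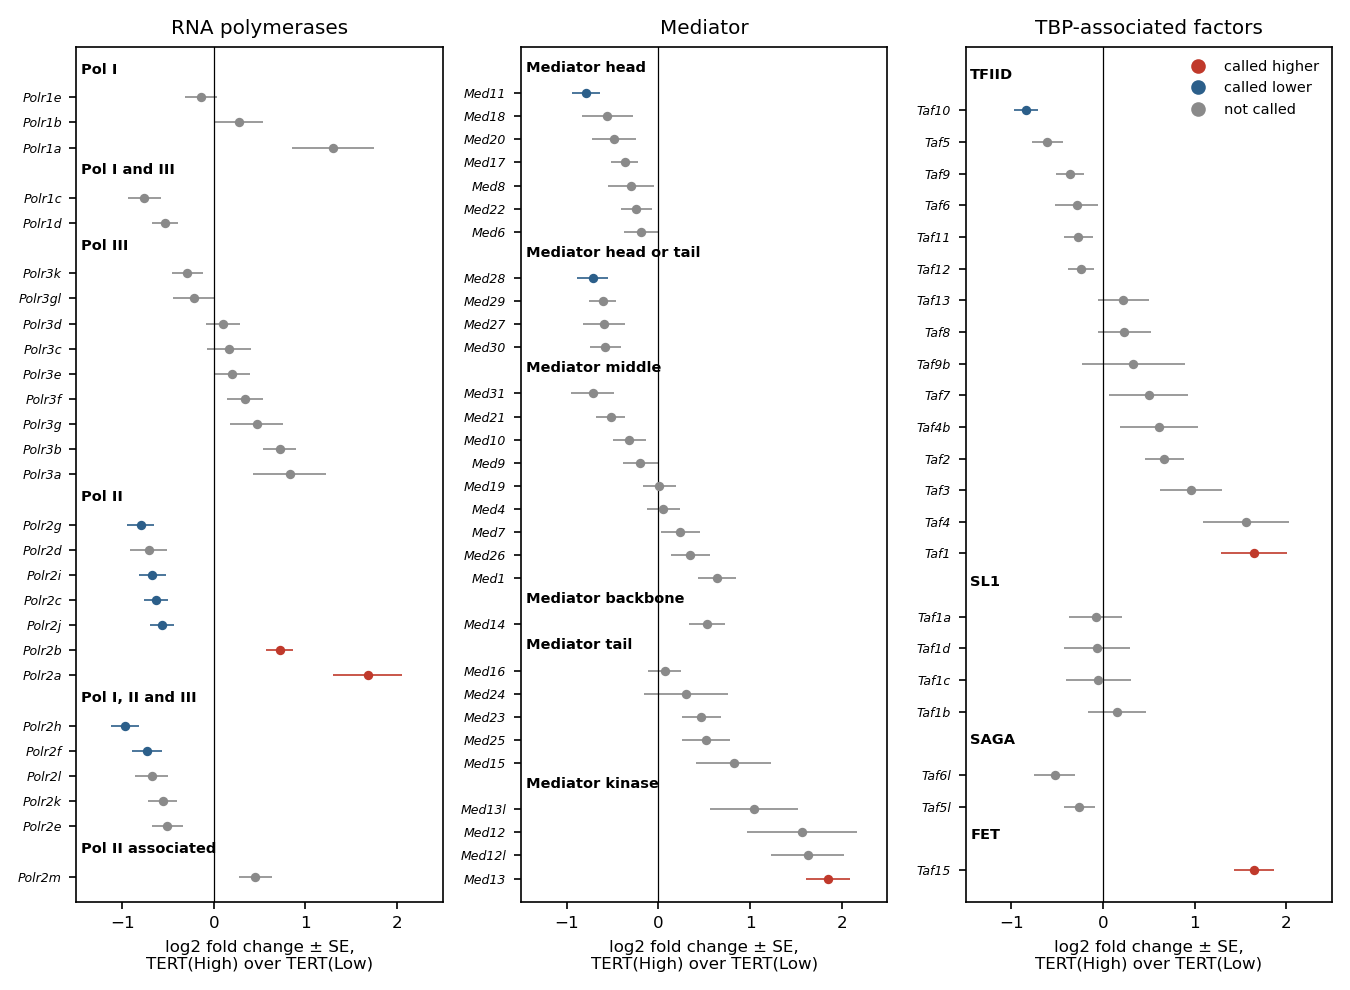
Log2 fold change (TERT(High) over TERT(Low)) with its standard error for the polymerase subunits, Mediator subunits and TAFs reported here, ordered by complex or module. The 5 genes called higher (red) lie between 0.72 and 1.85 and the 9 called lower (blue) between -0.97 and -0.57.

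The sequences upstream of 6 called genes are shown because these genes mark both directions among the polymerase, Mediator and TAF genes. They were picked from the 8 called genes, of 13 with a promoter, whose window held no exon annotated in GENCODE. Promoters came from the RefSeq table of GRCm38.p6, which matched 67 of the 80 genes with 80 promoters. Each run covers the bases from 200 to 25 before the start that this table gives, 176 bases in the direction of transcription. For Taf10 and Taf15 that start lies inside the RefSeq gene span, and the last bases of the window fall within the span. Capitals mark matches on either strand to TATAAA (the TATA box), GGGCGG (a GC box), CCGGAAG (an ETS site) or CCAAT (the CCAAT box). The first 3 genes, Polr2a (chr11:69758658-69758833, minus strand), Med13 (chr11:86357621-86357796, minus strand) and Taf15 (chr11:83472908-83473083, plus strand), were called higher. The other 3, Polr2c (chr8:94857250-94857425, plus strand), Taf10 (chr7:105744363-105744538, minus strand) and Med28 (chr5:45520029-45520204, plus strand), were called lower.
Polr2a: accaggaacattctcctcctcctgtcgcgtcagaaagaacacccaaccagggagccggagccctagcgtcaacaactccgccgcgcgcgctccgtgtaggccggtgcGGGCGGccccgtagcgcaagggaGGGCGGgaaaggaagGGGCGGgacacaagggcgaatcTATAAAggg
Med13: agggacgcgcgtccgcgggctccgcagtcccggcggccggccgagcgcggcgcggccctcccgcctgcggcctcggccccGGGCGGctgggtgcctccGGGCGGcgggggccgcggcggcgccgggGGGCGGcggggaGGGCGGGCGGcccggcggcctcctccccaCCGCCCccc
Taf15: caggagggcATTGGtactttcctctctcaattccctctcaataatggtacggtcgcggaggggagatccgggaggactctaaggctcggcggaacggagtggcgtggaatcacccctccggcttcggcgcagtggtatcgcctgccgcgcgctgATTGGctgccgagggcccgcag
Polr2c: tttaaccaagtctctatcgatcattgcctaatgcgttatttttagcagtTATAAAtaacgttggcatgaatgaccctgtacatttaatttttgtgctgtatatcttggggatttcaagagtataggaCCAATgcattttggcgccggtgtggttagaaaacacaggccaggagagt
Taf10: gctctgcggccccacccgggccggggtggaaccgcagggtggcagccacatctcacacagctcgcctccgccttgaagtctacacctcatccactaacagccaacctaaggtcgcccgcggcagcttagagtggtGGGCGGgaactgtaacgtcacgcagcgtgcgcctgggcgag
Med28: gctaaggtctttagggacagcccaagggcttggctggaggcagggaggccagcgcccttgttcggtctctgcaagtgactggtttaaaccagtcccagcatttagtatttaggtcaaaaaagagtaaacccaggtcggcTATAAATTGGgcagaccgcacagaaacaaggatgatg

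Base composition ranged widely in these windows. Med13 had 34 CpG dinucleotides and a GC content of 90.3%, with 6 GC boxes. Polr2a had 18 CpG and 65.3% GC, with 3 GC boxes and a TATA box at position -33 from the start. Polr2c, in contrast, had 5 CpG and 39.2% GC, with a TATA match at position -151, and Med28 had 4 CpG and 51.1% GC, with a TATA and a CCAAT match that overlap. Over the 80 promoters of the genes described here the median was 11 CpG and 58.2% GC, beside 10 CpG and 60.2% for 13436 promoters of tested genes. TATAAA was in 7.5% of them and in 4.21% of all, GGGCGG in 50% and 46.6%, CCGGAAG in 16.2% and 8.44%, and CCAAT in 30% and 29.3%. A palindromic NRF1 motif, GCGCA followed by its reverse complement, was in 0 of the 80 and in 1.02% of all. Among the promoters of called genes GGGCGG was in 3 of 5 for genes called higher and in 4 of 9 for genes called lower. TATAAA was in 1 of 5 and 2 of 9, and CCAAT in 2 of 5 and 4 of 9, so these 3 motifs occurred on both sides. CCGGAAG was in 0 of 5 and 0 of 9.

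Within RNA polymerase II the subunits divided by size. The 2 largest were called higher and the other 10, 5 of them common to all 3 polymerases, all had lower values in TERT(High) cells, with no overlap between the groups for any of the 10 and the same sign in every mouse. Polr2a (chr11:69733997-69758633), the largest subunit, carries the C-terminal repeat tail that is phosphorylated during transcription. Its level was 15.5, 29.3 and 25.5 CPM in TERT(High) and 8.92, 8.94 and 4.02 CPM in TERT(Low) libraries. TERT(High) cells of mouse 1 stood well under those of mice 2 and 3, yet above every TERT(Low) library. The level was 3.21-fold higher in TERT(High) (log2 1.68, SE 0.38, edgeR adjusted p = 0.0473), and with the mouse as a block the adjusted p was 0.0542. Polr2b (chr5:77310484-77349328), which forms the other side of the active centre, had 39.4, 35 and 35 CPM against 24.2, 18.9 and 23.4 CPM. These groups were tight and did not overlap, with a log2 change of 0.72 (SE 0.15, edgeR adjusted p = 0.0415).

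The small subunits of RNA polymerase II were lower by similar amounts. Polr2c (chr8:94857450-94864242), a scaffold on which the polymerase is assembled, had 16.2, 17.5 and 15.8 CPM in TERT(High) and 25.7, 26.1 and 24.9 CPM in TERT(Low) libraries. It was at -0.63 on the log2 scale (SE 0.13, edgeR adjusted p = 0.0377), with all 3 mice between -0.66 and -0.58. Polr2j (chr5:136116691-136122947), the partner of Polr2c in that scaffold, had 12.4, 14.0 and 12.7 CPM against 20.2, 19.2 and 18.7 CPM, or log2 -0.57 (SE 0.13, edgeR adjusted p = 0.0498). Both partners were thus lower in every mouse. Polr2g (chr19:8793129-8798557), of the stalk that holds the emerging RNA, had 8.06, 7.65 and 7.94 CPM against 14.6, 14.8 and 11.9 CPM (log2 -0.80, SE 0.15, edgeR adjusted p = 0.0342). Its stalk partner Polr2d was not called (log2 -0.71, SE 0.20, edgeR adjusted p = 0.0754). Polr2i (chr7:30232074-30233387), a small zinc-binding subunit that affects the accuracy of transcription, had 14.9, 12.2 and 15.4 CPM against 23.6, 23.2 and 20.9 CPM (log2 -0.67, SE 0.15, edgeR adjusted p = 0.0475).

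**Figure D2:**
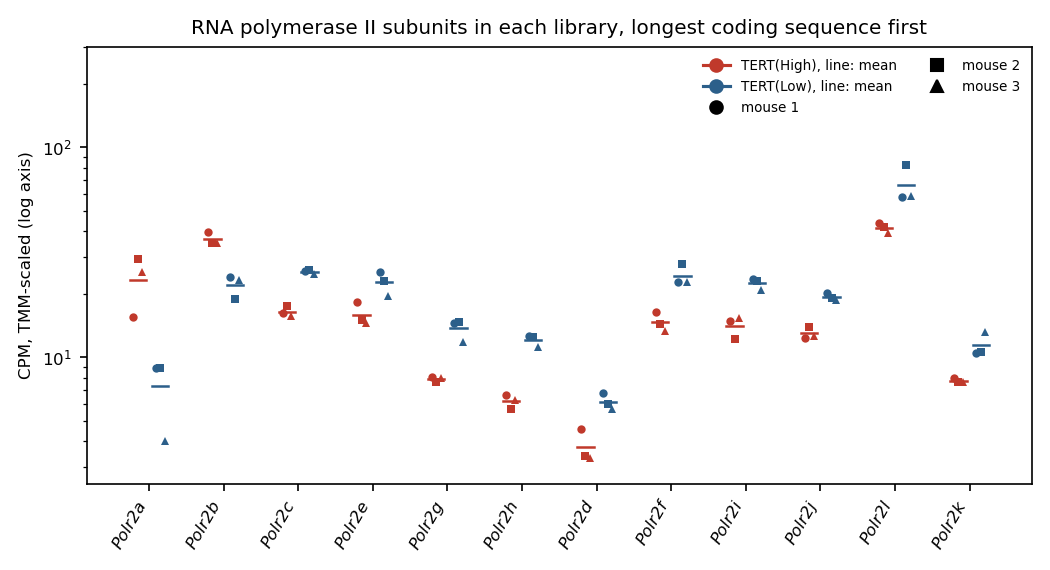
Level (CPM, log axis) of the 12 RNA polymerase II core and common subunits in each library, longest coding sequence first, with TERT(High) in red, TERT(Low) in blue, a marker shape for each mouse and a line at each group mean. Polr2a and Polr2b lie higher in TERT(High) libraries, and each of the other 10 lies lower in all 3 of them.

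Of the 5 subunits common to RNA polymerases I, II and III, 2 were called lower. Polr2h (chr16:20717826-20722272) had the most negative change of all 80 genes, with 6.64, 5.68 and 6.26 CPM in TERT(High) and 12.6, 12.5 and 11.2 CPM in TERT(Low) libraries. The TERT(Low) values were about equal to each other and far from the TERT(High) values (log2 -0.97, SE 0.15, edgeR adjusted p = 0.0277). Polr2f (chr15:79141325-79151774) had 16.5, 14.5 and 13.3 CPM against 22.8, 27.7 and 22.8 CPM (log2 -0.73, SE 0.16, edgeR adjusted p = 0.0444). The remaining 3, Polr2e, Polr2k and Polr2l, were not called, at log2 fold changes of -0.51, -0.56 and -0.68. With the mouse as a block Polr2f, Polr2i and Polr2j were no longer called (adjusted p = 0.0504, 0.0556 and 0.0582). Over the 29 alternatives in the closing section the adjusted p ran from 2.7e-05 to 0.941 for Polr2f, from 0.000282 to 0.935 for Polr2i, from 0.000812 to 0.955 for Polr2j and from 4.47e-05 to 0.443 for Polr2a.

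The opposite movement of large and small subunits was also read as a balance within each library, which no scaling of libraries can change. The log2 ratio of Polr2a to Polr2c was -0.06, 0.74 and 0.69 in TERT(High) and -1.53, -1.55 and -2.63 in TERT(Low) libraries, so the groups did not overlap (means 0.46 ± 0.45 and -1.90 ± 0.63, SD, n = 3). For Polr2b to Polr2c the ratios were 1.28, 1.0 and 1.14 against -0.09, -0.46 and -0.09, again without overlap. Polr2a to Polr2b, the balance of the 2 large subunits, overlapped between the groups, with -1.35, -0.26 and -0.45 against -1.44, -1.08 and -2.54. These pairs were chosen after the values were seen, Polr2a and Polr2b with Polr2c for their opposite calls, so the ratios are a description with no test. A ratio of a long gene to a short one keeps any length trend of its library. Polr2a, Polr2b and Polr2c code for 5910, 3522 and 825 nt. Over all tested genes of known length, the slope of log2 level (against the gene mean) on log2 transcript length was 0.0858, 0.139 and 0.285 in TERT(High) libraries. It was -0.0423, -0.271 and -0.197 in TERT(Low) libraries, and its part in the ratios was not tested. Polr2m, a factor that binds RNA polymerase II and competes with its partners, was not called, at a log2 fold change of 0.45 (SE 0.18).

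Among the subunits of RNA polymerases I and III that RNA polymerase II does not contain, none was called. Polr1a (chr6:71909053-71979435), the largest subunit of RNA polymerase I, had 7.17, 20.7 and 14.1 CPM in TERT(High) and 5.93, 7.62 and 3.49 CPM in TERT(Low) libraries. Mice 2 and 3 differed widely and mouse 1 hardly, and the groups overlapped (log2 1.30, SE 0.45, edgeR adjusted p = 0.111). Polr1b (chr2:129100970-129128060), the second-largest, had 13.4, 15.4 and 11.2 CPM against 13.3, 12.7 and 7.13 CPM (log2 0.27, SE 0.27, edgeR adjusted p = 0.568). Polr3a (chr14:24448694-24487070), the largest subunit of RNA polymerase III, had 4.41, 8.93 and 6.97 CPM against 5.45, 3.78 and 2.20 CPM (log2 0.83, SE 0.40, edgeR adjusted p = 0.227), and in mouse 1 the order was the opposite. Polr3b (chr10:84622292-84727178), the second-largest, had 6.99, 8.88 and 7.64 CPM against 5.16, 4.35 and 4.74 CPM, which did not overlap, and missed the threshold (log2 0.72, SE 0.18, edgeR adjusted p = 0.0539). All 6 largest and second-largest subunits thus had positive log2 fold changes, with a median of 0.77 and 2 of 6 called. The other 22 polymerase genes had a median of -0.52, with 16 of 22 negative and 6 called lower.

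Polr1c and Polr1d are the counterparts of Polr2c and Polr2j in polymerases I and III. Polr1d (chr5:147076715-147111361), which had the highest level per kb of transcript of the 28 polymerase genes (49.6 CPM per kb as the mean of 6 libraries), had 54.1, 46.8 and 44.7 CPM in TERT(High) and 73.8, 67.4 and 69.2 CPM in TERT(Low) libraries. The groups did not overlap, but the gene missed the threshold (log2 -0.53, SE 0.14, edgeR adjusted p = 0.0621). Polr1c was close to it at -0.76 (SE 0.18, edgeR adjusted p = 0.0515, and 0.0413 with the mouse as a block). The 10 subunits named for RNA polymerase III had a median of 0.19, with the highest value at 0.83 for Polr3a, and only 3 of the 10 had the same sign in all mice. The alternative subunits Polr3g and Polr3gl, which replace each other in the enzyme, had log2 values of 0.47 (SE 0.29) and -0.22 (SE 0.23), neither of them called.

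In Mediator the kinase module had the most positive changes and the head module negative ones. Med13 (chr11:86267033-86357596), which links the kinase module to the rest of Mediator, was the gene of largest increase among the 80. It had 10.8, 8.42 and 9.68 CPM in TERT(High) and 3.24, 1.97 and 2.81 CPM in TERT(Low) libraries, which is 1.85 on the log2 scale (SE 0.24, edgeR adjusted p = 0.0274). All 3 mice showed it, with differences of 1.72, 2.07 and 1.77. Med12, which activates the kinase of the module, had 2.20, 8.27 and 6.62 CPM against 1.80, 3.06 and 0.911 CPM, and its paralog Med12l had 0.800, 1.47 and 1.27 CPM against 0.395, 0.306 and 0.436 CPM. Med12 overlapped between the groups and Med12l did not, and neither was called (log2 1.57 and 1.63, SE 0.60 and 0.40, edgeR adjusted p = 0.145 and 0.0548). Med13l, the paralog of Med13, had 1.16, 3.02 and 2.73 CPM against 1.69, 0.764 and 0.892 CPM, higher in mice 2 and 3 and lower in mouse 1 (log2 1.04, SE 0.48, edgeR adjusted p = 0.209). The median of these 4 genes within mice 1, 2 and 3 was 0.61, 1.99 and 1.66. The partners Cdk8, Ccnc and Cdk19, which are the kinase, the cyclin and the paralog kinase, had log2 fold changes of 0.75, 0.26 and 0.30 (edgeR adjusted p = 0.0543, 0.351 and 0.650).

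**Figure D3:**
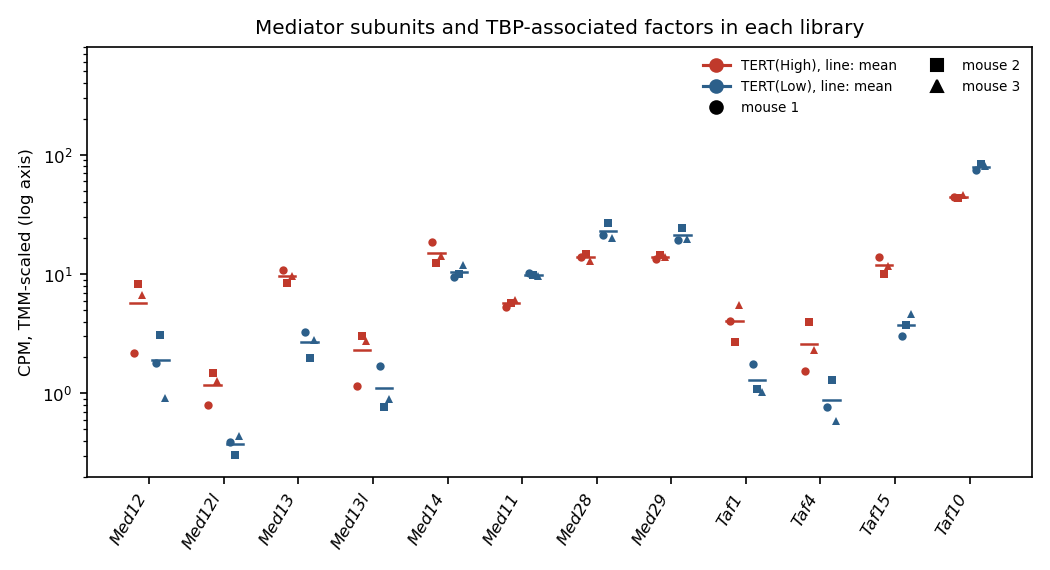
Level (CPM, log axis) of 8 Mediator subunits and 4 TAFs in each library, with TERT(High) in red, TERT(Low) in blue, a marker shape for each mouse and a line at each group mean. Med13, Taf1 and Taf15, and the uncalled Med12l, Med14 and Taf4, lie wholly higher in TERT(High) libraries. Med11, Med28, Med29 and Taf10 lie wholly lower, and Med12 and Med13l overlap.

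All 7 head subunits had negative log2 fold changes in every mouse, with a median of -0.37, and 1 was called. Med11 (chr11:70451918-70453732), a small head subunit, had 5.34, 5.73 and 6.09 CPM in TERT(High) and 10.3, 9.78 and 9.58 CPM in TERT(Low) libraries, 2 narrow ranges far apart (log2 -0.79, SE 0.15, edgeR adjusted p = 0.0335). Med27, Med28, Med29 and Med30, which lie between head and tail, all had TERT(High) values wholly below the TERT(Low) ones, with a median of -0.60. Med28 (chr5:45520229-45529284) was the called one, with 14.0, 14.6 and 12.8 CPM against 21.3, 27.0 and 20.1 CPM (log2 -0.72, SE 0.17, edgeR adjusted p = 0.0491). Med8 (chr4:118409282-118415824), the Mediator gene with the highest level per kb (19.8 CPM per kb), had 16.6, 25 and 19.4 CPM against 20.5, 32.7 and 21.9 CPM and was not called (log2 -0.30, SE 0.25, edgeR adjusted p = 0.480). Its 2 groups overlapped, although each mouse had the lower value in its TERT(High) cells.

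The middle module was mixed, with a median of 0.01 over 9 subunits and none called. Med1, the subunit that nuclear receptors bind, stood at log2 0.64 (SE 0.21, edgeR adjusted p = 0.10), and Med31 had -0.72 (SE 0.23, edgeR adjusted p = 0.0950). All 5 tail subunits, which many activators contact, had positive values with a median of 0.47, and none was called. Of the tail, Med15 had the highest value at 0.82 (SE 0.41, edgeR adjusted p = 0.243) and Med16 the lowest at 0.07. Med14, the backbone that joins the modules, had 0.53 (SE 0.20, edgeR adjusted p = 0.137), with no overlap between the groups.

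**Figure D4:**
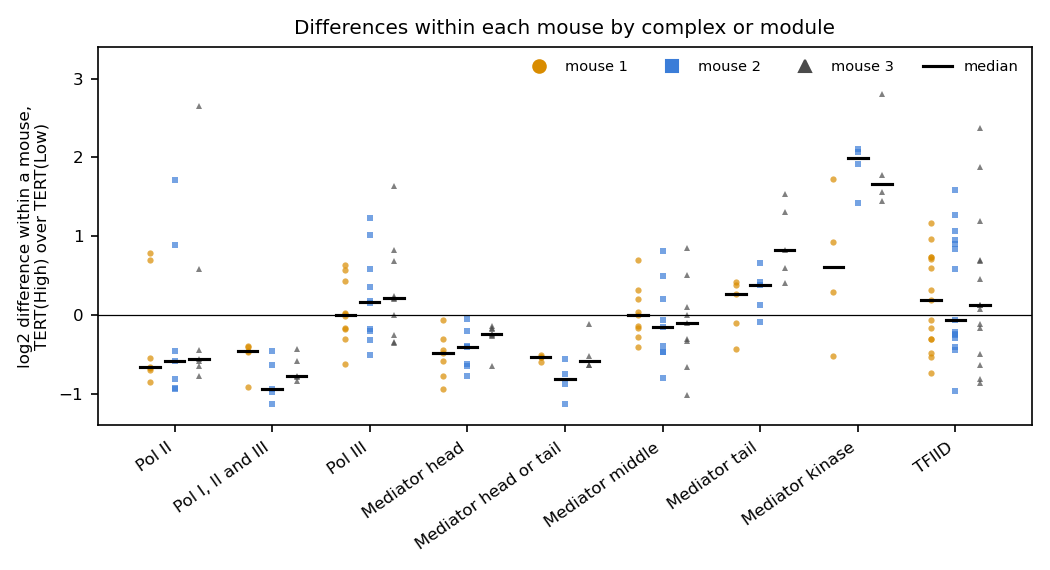
Log2 difference in CPM between TERT(High) and TERT(Low) cells of the same mouse for each gene, by complex or module, with a colour and shape for each mouse and a bar at the median. Med27 to Med30 stand under "Mediator head or tail". The kinase module medians are 0.61, 1.99 and 1.66 in mice 1, 2 and 3, and the head medians are -0.48, -0.41 and -0.24.

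TFIID subunits moved in both directions. Taf1 (chrX:101527572-101601789), the largest TAF and a scaffold of TFIID, had 4.05, 2.69 and 5.51 CPM in TERT(High) and 1.77, 1.09 and 1.02 CPM in TERT(Low) libraries. Every TERT(High) value was above every TERT(Low) value, a change of 1.65 on the log2 scale (SE 0.36, edgeR adjusted p = 0.0430). Taf10 (chr7:105742894-105744375), a histone-fold subunit that TFIID and the SAGA acetyltransferase both contain, had 44.4, 43.1 and 45.7 CPM against 74.2, 84.2 and 80.3 CPM (log2 -0.84, SE 0.13, edgeR adjusted p = 0.0277). The TERT(High) values of Taf10 spanned less than 3 CPM and lay far under the others. Over the 15 TFIID genes the median was 0.23, with 9 positive and 6 negative, and 12 of 15 had 1 sign in all mice.

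Taf4, a histone-fold subunit that activators contact, had a log2 fold change of 1.56 (SE 0.47) and was called in edgeR when the mouse was a block (adjusted p = 0.0455) but not without it (adjusted p = 0.0832). Taf2, which binds the initiator element, and Taf3, which reads a histone mark of active promoters, had 0.67 (SE 0.21) and 0.96 (SE 0.34), both positive in all mice and not called (edgeR adjusted p = 0.0931 and 0.117). Taf5, a scaffold subunit common to the TFIID lobes, had -0.61 (SE 0.17, edgeR adjusted p = 0.0737). TBP itself, encoded by Tbp, had -0.30 (SE 0.23, edgeR adjusted p = 0.446). The 4 TAFs of SL1, the TBP complex of RNA polymerase I, had values between -0.08 and 0.15, and none had the same sign in all mice. Taf5l and Taf6l, which replace Taf5 and Taf6 in SAGA, had -0.26 and -0.53, neither called.

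Taf15 (chr11:83473073-83506743) is an RNA-binding protein of the FET family rather than a constant TFIID subunit. It had 13.8, 10.1 and 11.6 CPM in TERT(High) and 3.01, 3.72 and 4.59 CPM in TERT(Low) libraries. All 3 TERT(High) values were more than double the highest TERT(Low) value, or log2 1.65 (SE 0.22, edgeR adjusted p = 0.0277). The difference was 2.18 in mouse 1, 1.42 in mouse 2 and 1.33 in mouse 3, so it was largest in the mouse whose Polr2a and kinase module differences were smallest.

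Genes that work with this machinery were counted from 7 lists with 99 genes tested. Of these, 9 were called higher and 2 lower (9.09% and 2.02%, beside 4.43% and 3.71% of all genes tested), and the median change was 0.27 on the log2 scale. Those called higher code for 1593 to 4533 nt and those called lower for 213 and 582 nt. All tested genes of 2000 nt or more had a median of 0.62, with 477 of 3620 called higher. Pausing and elongation factors, with a median coding length of 1917 nt, held most of the increases. In that list 7 of 29 were called higher and none lower, with a median of 0.72. Among them Supt16, a subunit of the histone chaperone FACT, had a log2 fold change of 1.79 (SE 0.19) and Aff4, a scaffold of the super elongation complex, 1.49 (SE 0.14), both with an edgeR adjusted p of 0.0241. Integrator, which cleaves nascent RNA, had 2 of 14 called higher, Ints6 at 1.28 (SE 0.24) and Ints8 at 0.87 (SE 0.20). With the mouse as a block, Ints8 (edgeR adjusted p = 0.0603) and the kinase Cdk12 of the elongation list (edgeR adjusted p = 0.0626, 0.0401 without the block) lost the call. Leo1 and Aff1 of the elongation list gained it (edgeR adjusted p = 0.0407 and 0.0490, 0.116 and 0.0526 without the block), which made 8 of 29 called higher. Among 18 general transcription factors none was called higher and 1 lower, the small TFIIH subunit Gtf2h5 at -0.69 (SE 0.12, edgeR adjusted p = 0.0321), with a median of 0.00. The 13 phosphatases of the polymerase tail and assembly factors included 1 called lower, Ssu72 at -0.66 (SE 0.13, edgeR adjusted p = 0.0348), with a median of 0.23. None was called among 18 factors of RNA polymerases I and III (median 0.21), 3 kinase and cyclin partners of Mediator (median 0.30) or 4 polymerase subunits listed under other symbols (median 0.38). With the mouse as a block 1 gene was called in the first of these lists, Bdp1 (log2 1.69 without the block, edgeR adjusted p = 0.0478 with it), and 1 in the last, Znrd1 (log2 -0.86, edgeR adjusted p = 0.0492).

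Coding length moved with the direction of change, as it did in all genes. Of the 16 members coding for under 500 nt, 15 were negative and 5 were called lower. Of all 1117 tested genes of that length, 975 were negative and 235 were called lower. The median of the 16 was -0.57 on the log2 scale, beside -0.52 for all tested genes of that length. The 25 from 500 to under 1000 nt had a median of -0.30 with 4 called lower, beside -0.29 with 194 of 2899. The 13 from 1000 to under 2000 nt had 0.10 with 1 called higher, which was Taf15, beside 0.00 with 99 of 4912. The 26 of 2000 nt or more had 0.69 with 23 positive and 4 called higher. All 3620 tested genes of that length had 0.62 with 2851 positive and 477 called higher. Both series of medians thus went up from the shortest to the longest range, by similar steps. Over the 80 genes Spearman's rho between coding length and log2 fold change was 0.77, and over 12548 tested genes of known length it was 0.52, as descriptions across genes that were all measured in the same 6 libraries. By complex rho was 0.86 in Mediator, 0.77 in the polymerases and 0.43 in the TAFs.

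**Figure D5:**
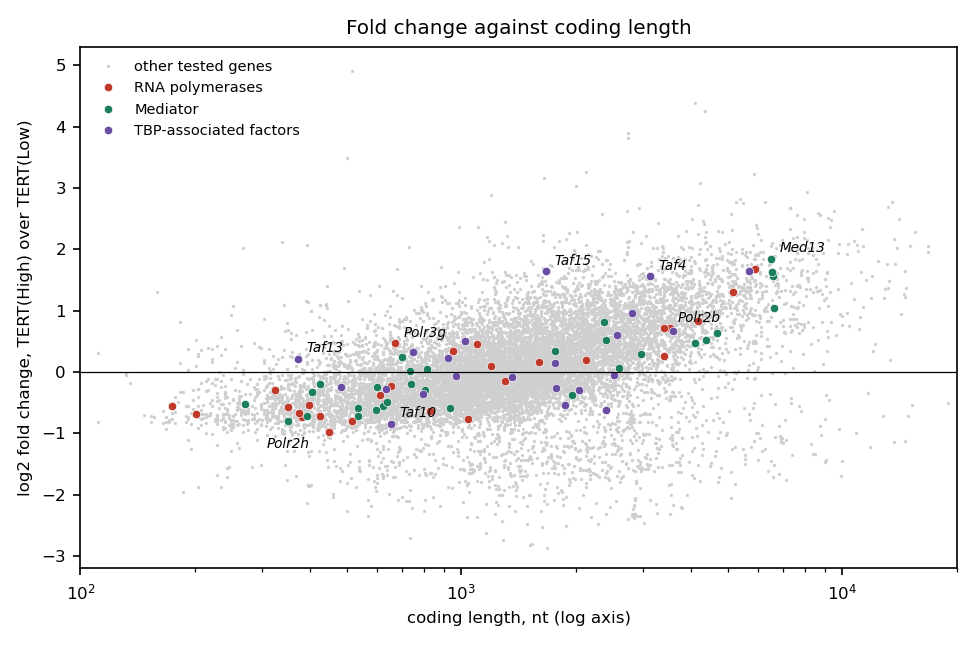
Log2 fold change (TERT(High) over TERT(Low)) against coding length (nt, log axis) for the tested genes of known length (grey) and for the polymerase, Mediator and TAF genes (coloured). Short members lie mostly below 0 and long ones mostly above, like the grey points, while Taf15 (1671 nt) lies at 1.65, where all genes from 1000 to under 2000 nt have a median of 0.00.

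With offsets for transcript length and GC content in every library, edgeR called no member and none of the 12548 genes that had both values. Before adjustment, 7 positive and 6 negative changes of members had a p under 0.05, with no count over all genes for comparison. The smallest adjusted p of a member was 0.155, that of Taf15. With the same correction DESeq2 called 5 higher (Med13, Polr2a, Polr2m, Taf1 and Taf15) and 3 lower (Med28, Taf10 and Taf5), beside 3.01% and 1.38% of the 12548 genes, so the number called after this correction differed between the tools. The corrected log2 fold change was 1.82 (SE 0.24) for Taf15, 1.28 for Polr2a, 1.03 for Med13, 0.42 for Polr2b, -1.05 for Taf10 and -1.11 for Med28. Of the 10 small RNA polymerase II subunits 9 stayed negative, with a median of -0.30 in place of -0.68, and Polr2j was at 0.03. All 4 kinase module subunits stayed positive, between 0.55 and 1.05. The GENCODE transcript of Taf10 (4281 nt) is longer than the RefSeq span of the gene (1482 bases), so its corrected value rests on a length the 2 annotations do not share. With coding length in place of transcript length, an alternative chosen after seeing the data, edgeR again called none of the 12548 genes. Each of the 6 single-gene changes was then closer to 0. Taf15 was at 1.56, Polr2a at 0.90, Med13 at 0.63, Taf10 at -0.48, Med28 at -0.50 and Polr2b at 0.04. The small RNA polymerase II subunits had a median of -0.16 with 8 of 10 negative, and the kinase module lay between 0.20 and 0.63.

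In the authors' deposited table, 77 of the 80 genes were listed, with 13 at an adjusted p under 0.05 and higher in TERT(High) cells, beside 15.8% of all 10858 listed genes, and 16 lower, beside 13.4%. In the authors' deposited table the log2 fold change was 1.68 for Med13 (adjusted p = 4.87e-10), 1.48 for Taf15 (adjusted p = 1.31e-06), 1.48 for Polr2a (adjusted p = 2.11e-05) and -0.84 for Taf10 (adjusted p = 1.04e-05). Polr1a and Taf4, not called above, were at 1.10 and 1.27 in the authors' deposited table (adjusted p = 0.00179 and 0.00245).

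The calls sit close to the threshold. With any 1 library other than TERT(High) of mouse 1 left out, edgeR called no gene of the whole table, so none of the 80. Its unadjusted p was under 0.05 for 10 to 16 positive and 16 to 23 negative changes, with no count over all genes for comparison. Without the TERT(High) library of mouse 1, edgeR called 5 higher and 10 lower, beside 6.85% and 5.21% of all genes. Scaling by library totals alone brought the median over all genes to 0.14 on the log2 scale. Then 4 of the 80 genes were called higher and none lower, beside 4.73% and 0.143% of all genes. Under each of the 4 scalings tried the 10 small RNA polymerase II subunits were negative, with medians from -0.72 to -0.52 while that of all genes went from -0.06 to 0.14, and Polr2a and Polr2b were positive. Exons of 20 of the 80 genes overlap another gene of the table, 19 of them on the opposite strand, and 8 of the called genes are among these (Polr2b, Polr2c, Polr2f, Polr2h, Polr2i, Polr2j, Taf10 and Med13). No source used here gives the strand setting of the counting, so reads of such pairs may be mixed. The gene opposite Polr2i, Tbcb, was itself called lower (log2 -0.69, edgeR adjusted p = 0.0494), and none of the genes opposite the other 7 was called.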

How the data were processed

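Sorted cells went into TRIzol-LS, and libraries were made with a KAPA stranded kit, per the labels. Trim Galore 0.4.0, TopHat2 2.0.13, DESeq2 and the genome mm10 were used, per the submitters' processing notes, and counter, strand setting and annotation were not given in the sources used here. The authors deposited raw counts per gene and library, unscaled. The authors' deposited table of results gives, per the file headers, a signal (baseMean), a log2 fold change with its standard error, a linear fold ratio, a test score (stat) and a p-value with its adjusted form, and its direction was read from the counts.

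The main test was edgeR 4.0.16 (R 4.3.3) on the counts of 6 libraries, with filterByExpr, TMM scaling, quasi-likelihood fits (robust) and Benjamini-Hochberg adjustment over 13288 genes at 0.05. The biological coefficient of variation was 40.7%. SE is the size of the log2 change over the root of the F statistic. Alternatives used DESeq2 1.42.0, limma 3.58.1, other scalings and filters, left-out libraries and mice, and corrections for length and GC content (natural splines of 4 degrees of freedom as offsets). Each mouse gave both populations, per the labels, and the main test left this pairing out. Within mice 1, 2 and 3 the 2 libraries deviated from the group means with correlations of -0.089, 0.733 and 0.601, and a block for the mouse, an alternative here, lowered the coefficient of variation to 29.6%.

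Coordinates are those of RefSeq GRCm38.p6 (Entrez numbers matched for 99.7% of genes). Lengths are from GENCODE M21, which matched 93.1%. The members and lists were chosen with earlier results of these data known. Values in every library were given for the 2 largest subunits of each polymerase, for up to 4 called members in each module and direction by smallest adjusted p, and for the member of highest level per kb in each family. Kinase module genes, other uncalled members, ratios of subunits and the genes whose promoters are printed were picked after their values were seen. So were the bins and correction by coding length, the promoter window and the use of the principal transcript in place of the one with the longest coding sequence, which had given Polr2c and Polr2k implausible lengths. Scripts were tested on simulated data. Python 3.11.15, pandas 2.3.3, numpy 2.4.6, scipy 1.17.1 and matplotlib 3.10.9 were used. 1 polymerase subunit is counted in the totals but its own values are not reported here.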

Additional observations from a re-analysis of the deposited data

How the results depend on the processing

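edgeR called 5 members higher and 9 lower, beside 4.43% and 3.71% of all genes. The count of members lower was 0 with library totals as the scaling, beside 0.143% of all genes, and 5 without a filter, beside 2.16%. DESeq2 and limma-voom each called 12 higher and 19 lower of the 80, beside 11.5% and 9.77% of all genes in DESeq2 and 10.2% and 8.30% in limma-voom. An adjusted p under 0.10 gave 9 and 19, beside 10.7% and 8.56% of all genes. With the mouse as a block there were 5 and 7 of the 80 (6.25% and 8.75%), beside 721 and 571 of all 13288 genes. Correction for transcript length and GC content gave 0 and 0 in edgeR, with or without the block (7 and 6 at an unadjusted p under 0.05 without it, 10 and 7 with it), and DESeq2 with that correction called 5 and 3. Correction by coding length, added after seeing the data, gave 0 and 0 with or without the block (4 and 5, or 9 and 12, at an unadjusted p under 0.05). Leaving out 1 library, edgeR called 0 to 5 higher and 0 to 10 lower, beside 0 to 6.85% and 0 to 5.21% of all genes. DESeq2 called 5 to 14 higher and 11 to 21 lower (17 lower without the TERT(Low) library of mouse 3). The shares of all genes in DESeq2 were 5.82% to 12.5% and 5.87% to 12.3%. Leaving out a mouse, edgeR called 0 and 0 (7 to 14 and 11 to 21 at an unadjusted p under 0.05). The share of all genes at an unadjusted p under 0.05 was not counted for these alternatives, so their unadjusted counts have no background. Polr2j turned to 0.03 under the transcript length and GC correction (with edgeR, the block or DESeq2) and to 0.05 by coding length, and Polr1b to -0.18 by coding length, each with or without the block. Where edgeR called 0 and 0 members it called 0 genes over the whole table. The cause was not tested. Of 539 values of named members under alternatives, 321 kept direction and side of the threshold, 196 lost the call, 15 gained it and 7 changed sign. At these depths the least abundant named member, Med12l, has 0.306 to 1.47 CPM, where counting error adds to the spread.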
